A study of Mus musculus with 24 samples.

Results

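The interferon regulatory factor (IRF) genes were followed across 24 arrays of mouse dendritic cells grown from bone marrow. The members were found through the accession of each probe, matched to RefSeq gene names, and were 8 genes, Irf1, Irf2, Irf3, Irf4, Irf5, Irf7, Irf8 and Irf9, among 12648 named genes and 20209 features tested. All 8 were well above background on all 24 arrays, so no member was lost to the filter on dim probes. Each was measured by 1 probe, except Irf1, for which a second, dim probe is described at the end.

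Bone marrow of C57BL/6 mice was grown for 9 days with human Flt3 ligand at 100 ng/ml, a growth factor under which plasmacytoid and conventional dendritic cells arise side by side. The genotypes were Lyn/Irf5-DKO (DKO below), which lacks the Src-family kinase Lyn as well as IRF5, then Lyn-KO, Irf5-KO and WT. Cells of each genotype received CpG-B ODN, a synthetic DNA sensed by Toll-like receptor 9 (TLR9), at 150 nM for 6 h, or were left unstimulated, which made 8 groups of 3 arrays labelled as biological triplicates. All groups shared the strain, the growth factor and the length of culture, while the sources used here do not give the knockout alleles or the age and sex of the mice. The cultures were measured in bulk, so a gene carried by fewer cells and a gene with less RNA per cell cannot be told apart.

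IRFs are transcription factors that share a DNA-binding domain and recognise GAAA repeats in interferon-responsive promoters. IRF3, IRF5 and IRF7 are activated by signalling below nucleic acid sensors and switch on interferon and cytokine genes, and IRF7 sits below TLR9 and MyD88 in plasmacytoid dendritic cells. IRF9 is the DNA-binding subunit of ISGF3, the transcription factor complex that answers type I interferon, and IRF1 and IRF2 act on overlapping sites as activator and attenuator. IRF4 and IRF8 are the lymphoid and myeloid members, which bind together with PU.1 or BATF proteins and direct the development of B cells and dendritic cells.

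A level below is the log2 processed signal of a probe minus the 75th percentile of its array, and a difference of 1 is a doubling of signal. Levels of different probes are not set against each other. Changes were tested with limma over all 20209 features with 1 mean per group, a change is called where the Benjamini-Hochberg adjusted p is below 0.05, and an error written after ± is the SD over 3 arrays for a level and the standard error (SE) for a log2 fold change. Replicate numbers coincided with the 3 array slides, each of which held 1 array of every group, so differences within each slide are also given. On every array of Lyn-KO and DKO cells the Lyn probe lay below all arrays of the other genotypes, with means of -0.86 in unstimulated DKO, -0.85 in unstimulated Lyn-KO, 1.10 in unstimulated Irf5-KO and 0.98 in unstimulated WT cells. The Lyn probe was still well above background on all 24 arrays, so its signal was lower in those genotypes but not absent. The Irf5 probe also stayed well above background on every array labelled Irf5-KO or DKO. The sources used here do not say where it lies relative to the deleted part. It therefore checks nothing about that label, and the names Irf5-KO and DKO are used as the labels give them. Of the marker genes listed for plasmacytoid dendritic cells, 13 of 14 had a probe, and all 13 were well above background on 24 arrays, while of 10 T and NK cell markers 9 had a probe, of which 3 were so on 24 arrays and 1 on 0 arrays.

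Promoters are shown for 4 members whose values are described below. Of these, Irf1, Irf2 and Irf7 rose with CpG-B in each genotype, and Irf8 was called lower in all genotypes but Lyn-KO. The sequences are RefSeq promoters of build GRCm38.p6, 250 bases before to 50 after the start, on the strand of the gene and 5′ to 3′, and all 8 members had at least 1 such entry (11 in all). Capitals mark matches to the ISRE core GAAANNGAAA, the GAS element TTCNNNGAA and the NF-kB consensus, all searched on both strands.
Irf1, chr11:53769764-53770063, plus strand: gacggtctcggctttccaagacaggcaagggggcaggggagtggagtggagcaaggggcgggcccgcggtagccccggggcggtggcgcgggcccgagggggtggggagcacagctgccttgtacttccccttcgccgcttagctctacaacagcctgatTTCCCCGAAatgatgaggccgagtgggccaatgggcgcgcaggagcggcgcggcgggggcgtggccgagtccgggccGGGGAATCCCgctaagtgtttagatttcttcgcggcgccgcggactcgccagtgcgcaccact
Irf2, chr8:46739495-46739794, plus strand: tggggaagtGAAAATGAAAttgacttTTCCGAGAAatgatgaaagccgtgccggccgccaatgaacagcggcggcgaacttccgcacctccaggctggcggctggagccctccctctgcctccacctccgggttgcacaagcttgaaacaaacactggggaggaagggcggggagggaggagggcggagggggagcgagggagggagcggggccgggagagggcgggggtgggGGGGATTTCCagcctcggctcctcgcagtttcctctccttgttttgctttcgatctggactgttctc
Irf7, chr7:141266375-141266674, minus strand: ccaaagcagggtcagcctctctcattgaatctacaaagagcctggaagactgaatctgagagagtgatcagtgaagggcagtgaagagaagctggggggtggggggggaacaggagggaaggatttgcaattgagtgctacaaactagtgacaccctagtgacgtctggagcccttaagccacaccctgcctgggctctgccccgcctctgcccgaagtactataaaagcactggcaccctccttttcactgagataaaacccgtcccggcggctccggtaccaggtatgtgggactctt
Irf8, chr8:120736108-120736407, plus strand: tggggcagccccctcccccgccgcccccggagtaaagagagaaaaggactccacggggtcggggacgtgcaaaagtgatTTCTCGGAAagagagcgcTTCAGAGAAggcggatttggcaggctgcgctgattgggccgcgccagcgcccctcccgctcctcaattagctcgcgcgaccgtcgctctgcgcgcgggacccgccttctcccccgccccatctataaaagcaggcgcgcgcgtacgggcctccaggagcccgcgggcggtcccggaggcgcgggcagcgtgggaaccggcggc
In the Irf1 window the GAS match covers bases -90 to -82 from the start and the NF-kB match bases -13 to -4. The Irf2 window has the ISRE core at -241 to -232, a GAS match at -224 to -216 and an NF-kB match at -17 to -8, and the Irf8 window has GAS matches at -171 to -163 and -153 to -145. Irf1 and Irf8 each have another entry, not shown, without any of these motifs. No matches overlapped. Among all 32851 promoters of the table, 3.44% held the ISRE core, 8.3% the GAS element and 8.46% the NF-kB consensus, and of the 11 IRF promoters 1 held the ISRE core, 3 the GAS element and 2 the NF-kB consensus. The other 8 IRF promoters, including that of Irf7 shown here, held none of these motifs in the window. Among those not shown are the promoters of Irf4 and Irf9, which also rose with CpG-B in each genotype. A link between motifs and CpG-B responses was not tested.

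CpG-B changed nearly the whole family. Of the 8 members, 8 were called in DKO cells (7 higher, 1 lower), 7 in Lyn-KO cells (6 higher, 1 lower), 8 in Irf5-KO cells (7 higher, 1 lower) and 8 in WT cells (6 higher, 2 lower). The background is high, because 70.5% of all features were called in DKO, 68.9% in Lyn-KO, 66.8% in Irf5-KO and 68.5% in WT cells. A count of called members therefore says little about the family, and the values of each gene carry the description. The median absolute log2 change over the 8 members was 0.91 in DKO, 1.12 in Lyn-KO, 1.31 in Irf5-KO and 1.09 in WT cells. Irf1, Irf2, Irf4, Irf7 and Irf9 rose in each genotype, and Irf3 did so under the main scaling but not under every other. Irf8 was called lower in all genotypes but Lyn-KO. The Irf5 probe rose in Irf5-KO and DKO cells and fell in Lyn-KO and WT cells.

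**Figure D1:**
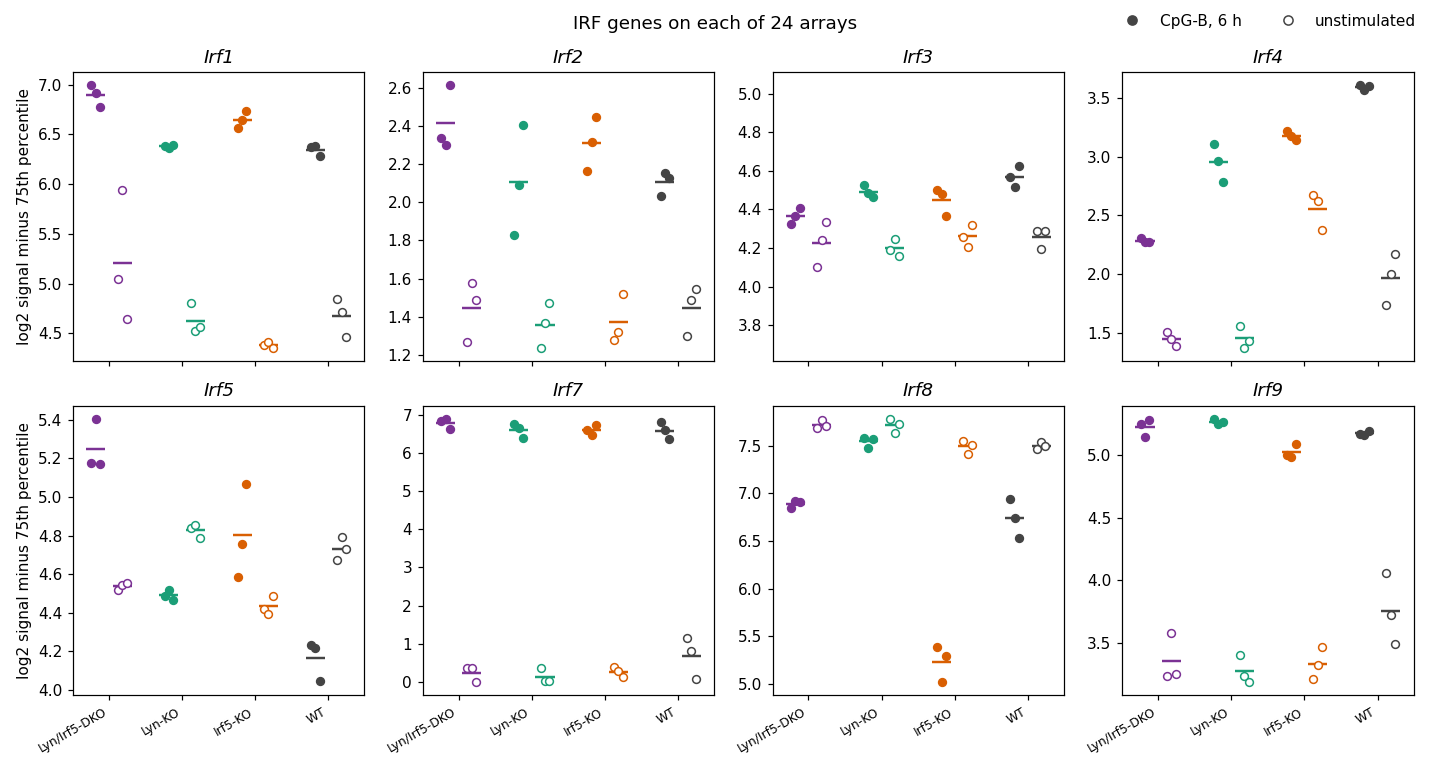
Level of each IRF gene (y axis, log2 signal minus the 75th percentile of the array, scaled per panel) on each array with CpG-B (filled points) and unstimulated (open points), with group means as lines, by genotype (x axis). Irf7 sits between 6.36 and 6.89 on all CpG-B arrays and between 0.004 and 1.16 on all unstimulated arrays, and Irf8 is lowest on the 3 Irf5-KO arrays with CpG-B.

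Irf7, the activator of interferon alpha genes below TLR9, had the largest change of the family. With CpG-B its level was 6.82, 6.89 and 6.62 in DKO, 6.76, 6.64 and 6.38 in Lyn-KO, 6.60, 6.46 and 6.72 in Irf5-KO and 6.80, 6.59 and 6.36 in WT cells. Unstimulated, it was 0.38, 0.37 and 0.004 in DKO, 0.37, 0.039 and 0.025 in Lyn-KO, 0.38, 0.28 and 0.13 in Irf5-KO and 1.16, 0.80 and 0.084 in WT cells. The stimulated arrays of all genotypes therefore overlap with each other and lie far above all unstimulated ones, and WT replicates 1 and 2 are the highest unstimulated arrays. Irf7 rose 92.3-fold in DKO, 87.5-fold in Lyn-KO, 80.5-fold in Irf5-KO and 59.8-fold in WT cells, with adjusted p of 9.82e-16 to 4.12e-15 (limma). With CpG-B no mutant was called different from WT, and the differences were 0.19 for DKO (95% interval -0.23 to 0.61), 0.013 for Lyn-KO (-0.41 to 0.43) and 0.01 for Irf5-KO (-0.41 to 0.43), all on the log2 scale.

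The unstimulated level of Irf7 was not called different from WT in DKO (-0.43 ± 0.20, adjusted p = 0.245), Lyn-KO (-0.54 ± 0.20, 0.155) or Irf5-KO cells (-0.42 ± 0.20, 0.477). Leaving out single arrays moved these differences both ways. At the smallest they were -0.195 in DKO, -0.299 in Lyn-KO and -0.182 in Irf5-KO cells. Without WT replicate 3, the lowest of its group, all 3 differences were called, at -0.73 in DKO (adjusted p = 0.0109), -0.84 in Lyn-KO (0.00506) and -0.72 in Irf5-KO cells (0.0436, limma). Within the slides the Lyn-KO difference was -0.79, -0.77 and -0.059, and with slide as a block it was called (adjusted p = 0.0422). The response in DKO minus that in WT was 0.63 ± 0.28 (adjusted p = 0.105), and it too was called with slide as a block (0.0278) or without WT replicate 3 (0.93, 0.00357). Without that array the response differences from WT were also called for Lyn-KO (0.85, 0.0178) and Irf5-KO (0.73, 0.037), against 0.256 and 0.405 with all arrays. Leaving out other single arrays lowered the response differences to as little as 0.389 in DKO, 0.312 in Lyn-KO and 0.192 in Irf5-KO cells.

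Irf9, the DNA-binding part of ISGF3, rose with CpG-B to 5.25, 5.15 and 5.28 in DKO, 5.29, 5.25 and 5.26 in Lyn-KO, 4.997, 4.99 and 5.09 in Irf5-KO and 5.17, 5.16 and 5.19 in WT cells. Unstimulated levels were 3.23, 3.58 and 3.25 in DKO, 3.40, 3.23 and 3.19 in Lyn-KO, 3.21, 3.32 and 3.47 in Irf5-KO and 4.05, 3.72 and 3.49 in WT cells. No stimulated array overlaps an unstimulated one, and WT arrays are the highest of the unstimulated groups with 1 DKO array reaching into their range. The response was 1.87 ± 0.11 in DKO, 1.99 ± 0.11 in Lyn-KO, 1.69 ± 0.11 in Irf5-KO and 1.42 ± 0.11 in WT cells (log2 fold change, adjusted p at most 1.23e-09), and the stimulated levels of the mutants were not called different from WT (adjusted p = 0.748 in DKO, 0.598 in Lyn-KO and 0.385 in Irf5-KO), although the 3 Irf5-KO arrays lie below all other stimulated arrays.

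Unstimulated Irf9 was lower than WT in Lyn-KO (-0.48 ± 0.11, adjusted p = 0.0151) and in DKO cells (-0.40 ± 0.11, 0.0362), and in Irf5-KO cells the difference was -0.42 ± 0.11 (0.0985). Within slides it was -0.65, -0.49 and -0.31 for Lyn-KO and -0.82, -0.14 and -0.24 for DKO. Single arrays decide these calls. Without WT replicate 1, which is the highest unstimulated array, the differences were -0.33 in Lyn-KO (adjusted p = 0.0848) and -0.25 in DKO (0.213). The Lyn-KO call was also lost without Lyn-KO replicate 2 (0.0557) or 3 (0.0785), and the DKO call without WT replicate 2 (0.0579) or DKO replicate 1 (0.16) or 3 (0.131). Without WT replicate 3 the Irf5-KO difference was called too (-0.56, 0.0151).

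Irf1, an activator of MHC class I and guanylate-binding protein genes, rose in all genotypes. With CpG-B it was 6.997, 6.92 and 6.78 in DKO, 6.39, 6.37 and 6.40 in Lyn-KO, 6.56, 6.64 and 6.74 in Irf5-KO and 6.37, 6.38 and 6.29 in WT cells. Unstimulated, it was 5.05, 5.94 and 4.64 in DKO, 4.81, 4.52 and 4.56 in Lyn-KO, 4.39, 4.41 and 4.35 in Irf5-KO and 4.85, 4.71 and 4.47 in WT cells. Every stimulated array lies above every unstimulated one, and DKO replicate 2 stands apart among the unstimulated arrays. The change was 3.22-fold in DKO, 3.38-fold in Lyn-KO, 4.81-fold in Irf5-KO and 3.18-fold in WT cells (adjusted p at most 4.83e-07). DKO cells exceeded WT with CpG-B by 0.55 ± 0.20 (adjusted p = 0.032), with 0.62, 0.54 and 0.49 on the slides. Leaving out any of WT replicates 1, 2 and 3 or of DKO replicates 1 and 2 kept this difference between 0.50 and 0.57 but ended the call (adjusted p = 0.0572 to 0.0915). Quantile normalisation gave 0.46 (0.0877).

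Unstimulated DKO cells also exceeded Irf5-KO cells in Irf1, by 0.83 ± 0.20 (adjusted p = 0.0177), but the slides gave 0.66, 1.53 and 0.29, and without DKO replicate 2 the difference was 0.46 (adjusted p = 0.0303). The call was lost without Irf5-KO replicate 1 (0.052), 2 (0.0561) or 3 (0.0599). All groups share 1 estimate of the spread for a gene. Without DKO replicate 2, Irf1 with CpG-B was called higher than in Lyn-KO cells for DKO (0.51, adjusted p = 0.000943) and higher than in WT for Irf5-KO (0.30, 0.0421), against 0.0601 and 0.316 with all arrays. The Irf5-KO response minus the WT response was then called too (0.59, 0.0116, against 0.211 with all arrays). Without DKO replicate 3, the lowest of its group, unstimulated DKO cells were called higher than Lyn-KO (0.87, 0.0413) and WT cells (0.82, 0.00786), and stimulated DKO higher than Lyn-KO cells (0.0158).

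Irf2, the attenuator that competes with IRF1 for the same sites, rose by 0.97 ± 0.13 in DKO, 0.75 ± 0.13 in Lyn-KO, 0.94 ± 0.13 in Irf5-KO and 0.66 ± 0.13 in WT cells (log2, adjusted p at most 0.000153). Its levels with CpG-B were 2.34, 2.30 and 2.62 in DKO, 1.83, 2.09 and 2.40 in Lyn-KO, 2.16, 2.31 and 2.45 in Irf5-KO and 2.04, 2.16 and 2.13 in WT cells. On unstimulated arrays it lay between 1.24 and 1.58 in all genotypes. With CpG-B the DKO arrays lie above all WT arrays and overlap Irf5-KO, while the Lyn-KO arrays are the most spread. The difference of DKO from WT with CpG-B was 0.31 ± 0.13 (adjusted p = 0.0559) and became called with slide as a block (0.00299), where the slides gave 0.30, 0.15 and 0.49. It was also called without DKO replicate 2 (0.37, 0.0492) or Lyn-KO replicate 1 (0.0327) or 3 (0.0287). Against Lyn-KO the DKO difference was 0.31 ± 0.13 (adjusted p = 0.0768, or 0.00474 with the block), and it was called at 0.46 without Lyn-KO replicate 3 (0.00933). The response in DKO minus that in WT was 0.31 ± 0.18 (0.219, or 0.0367 with the block).

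Irf3, the constitutively expressed sensor-activated member, moved little. Its level was 4.32, 4.37 and 4.41 with CpG-B, against 4.10, 4.24 and 4.34 unstimulated, in DKO cells. In WT cells it was 4.57, 4.52 and 4.62 with CpG-B, against 4.29, 4.19 and 4.29 unstimulated. The groups overlap in DKO and do not in WT. The change was 0.14 ± 0.058 in DKO (adjusted p = 0.0397), 0.29 ± 0.058 in Lyn-KO (0.000176), 0.19 ± 0.058 in Irf5-KO (0.00749) and 0.32 ± 0.058 in WT cells (8.28e-05). The sign depends on the scaling: quantile normalisation gave -0.19 in DKO (0.00364), 0.068 in Lyn-KO (0.264), -0.053 in Irf5-KO (0.391) and 0.12 in WT cells (0.0591). In DKO cells the call was also lost without unstimulated replicate 1 (0.076, 0.25) or 2 (0.0609) and without CpG-B replicate 2 (0.0743) or 3 (0.119). With CpG-B, DKO cells were -0.20 ± 0.058 from WT (adjusted p = 0.0068), on the slides -0.24, -0.15 and -0.22, and -0.33 after quantile normalisation (5.2e-05). The response in DKO minus that in WT was -0.18 ± 0.082 (0.116), and it was called without unstimulated DKO replicate 1 (-0.24, 0.0264).

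**Figure D2:**
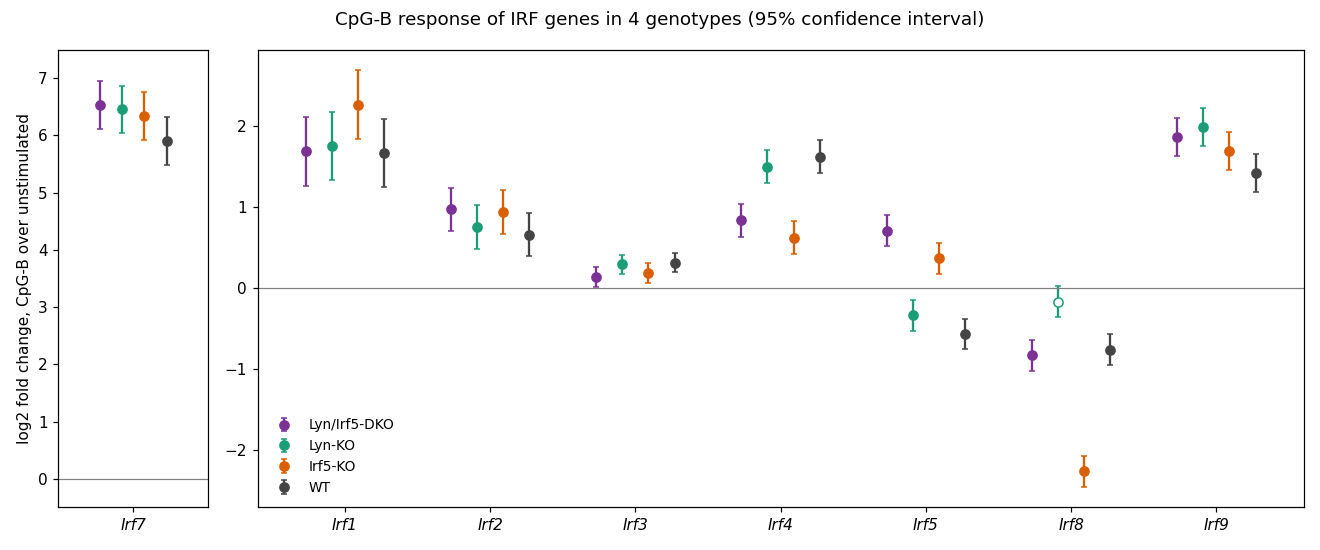
Log2 fold change of CpG-B over unstimulated cells (y axis) for each IRF gene (x axis) in DKO, Lyn-KO, Irf5-KO and WT cells, with 95% confidence intervals from limma. Filled points are called and the open point (Irf8 in Lyn-KO cells) is not. Irf7 has its own panel because its change is near 6, and Irf4, Irf5 and Irf8 show the widest spread between genotypes.

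Irf8, which specifies plasmacytoid and type 1 conventional dendritic cells, was the member whose fitted CpG-B response spread most widely over the genotypes. With CpG-B its level was 6.84, 6.92 and 6.91 in DKO, 7.58, 7.47 and 7.57 in Lyn-KO, 5.38, 5.02 and 5.30 in Irf5-KO and 6.94, 6.74 and 6.53 in WT cells. Unstimulated, it was 7.68, 7.77 and 7.71 in DKO, 7.78, 7.63 and 7.72 in Lyn-KO, 7.55, 7.41 and 7.51 in Irf5-KO and 7.46, 7.54 and 7.49 in WT cells. The unstimulated arrays lie close together, whereas with CpG-B the Irf5-KO arrays fall below all others, the Lyn-KO arrays lie above all others, and DKO and WT arrays overlap. Irf8 fell in DKO (-0.83 ± 0.091, adjusted p = 1.37e-07), Irf5-KO (-2.26 ± 0.091, 6.22e-14) and WT cells (-0.76 ± 0.091, 4.44e-07) on the log2 scale, and the change in Lyn-KO cells was -0.17 ± 0.091 (0.11). That change was not called, although the Lyn-KO arrays with CpG-B all lay below the unstimulated Lyn-KO arrays.

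The response in Irf5-KO minus that in WT was -1.496 ± 0.13 (adjusted p = 2.8e-07), with -1.65, -1.59 and -1.25 on the slides. In Lyn-KO cells it exceeded the WT response by 0.59 ± 0.13 (0.00467, slides 0.32, 0.65 and 0.81), while in DKO cells the difference was -0.065 ± 0.13 (0.753, 95% interval -0.34 to 0.20). These comparisons share the WT arrays. The Lyn-KO value was 0.47 and not called after normexp correction with quantile normalisation (0.136).

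Set against genotype at 6 h of CpG-B, Irf8 was lower in Irf5-KO than in WT by 2.83-fold (-1.503 ± 0.091, adjusted p = 8.11e-10) and 1.57-fold lower in DKO set against Lyn-KO (-0.65 ± 0.091, 1.75e-05). Loss of Lyn went with more Irf8, 1.75-fold in Lyn-KO over WT (0.81 ± 0.091, 2.42e-06) and 3.16-fold in DKO over Irf5-KO (1.66 ± 0.091, 2.63e-10). The effect of losing Lyn was larger without Irf5 than with it by 0.85 ± 0.13 (adjusted p = 0.000931, slides 0.82, 1.17 and 0.57). Irf8 was the member called in this comparison, 1 of 8, where 3.61% of all features were called. DKO and WT cells differed by 0.15 ± 0.091 (0.181), and without WT replicate 1 this difference was called (0.26, 0.0261).

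Markers of dendritic cell types are given beside Irf8. The summed linear level of 13 plasmacytoid markers with CpG-B was 1050 to 1150 in DKO, 1070 to 1190 in Lyn-KO, 711 to 773 in Irf5-KO and 755 to 818 in WT cells (range over 3 arrays), and unstimulated it was 601 to 673 in DKO, 655 to 699 in Lyn-KO, 509 to 602 in Irf5-KO and 510 to 632 in WT cells. In every genotype these sums were higher with CpG-B than without it, and with CpG-B those of DKO and Lyn-KO overlapped. Of the 13, 8 were called higher and 2 lower in DKO than in WT with CpG-B (background 44.8%), 9 higher and 0 lower in Lyn-KO (25.2%), and 0 higher and 5 lower in Irf5-KO cells (25.5%). Of these markers 3 also stand in pathway lists used below. The sum of 11 type 1 conventional dendritic cell markers was 173 to 180 in DKO, 164 to 185 in Lyn-KO, 142 to 146 in Irf5-KO and 158 to 160 in WT cells with CpG-B, against 385 to 448 in DKO, 344 to 415 in Lyn-KO, 386 to 416 in Irf5-KO and 365 to 430 in WT cells unstimulated. Against WT with CpG-B, 8 higher and 1 lower of the 11 were called in DKO (median log2 difference 0.68), 4 higher and 2 lower in Lyn-KO (-0.18) and 4 higher and 2 lower in Irf5-KO cells (0.29). The part of these markers in the Irf8 values was not tested.

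Irf4, which acts in B cell and plasma cell differentiation and in type 2 conventional dendritic cells, differed between genotypes with and without CpG-B. With CpG-B its level was 2.31, 2.28 and 2.28 in DKO, 3.11, 2.96 and 2.78 in Lyn-KO, 3.22, 3.18 and 3.14 in Irf5-KO and 3.61, 3.57 and 3.60 in WT cells. Unstimulated, it was 1.51, 1.45 and 1.39 in DKO, 1.56, 1.37 and 1.43 in Lyn-KO, 2.67, 2.62 and 2.38 in Irf5-KO and 1.74, 2.00 and 2.17 in WT cells. The stimulated groups do not overlap and run from DKO, the lowest, over Lyn-KO and Irf5-KO to WT. Among the unstimulated groups Irf5-KO is the highest, WT follows, and Lyn-KO and DKO overlap at the bottom. Irf4 rose 1.79-fold in DKO, 2.82-fold in Lyn-KO, 1.54-fold in Irf5-KO and 3.08-fold in WT cells (adjusted p at most 1.49e-05).

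Without stimulation, Irf4 was 0.59 ± 0.097 higher in Irf5-KO than in WT cells on the log2 scale (adjusted p = 0.00735, slides 0.94, 0.62 and 0.21). In Lyn-KO and DKO cells it was lower than WT, at -0.52 ± 0.097 (0.00296, slides -0.18, -0.63 and -0.74) and -0.52 ± 0.097 (0.00221, slides -0.23, -0.56 and -0.79). These calls rest on the spread estimated over all 8 groups: with only the groups of the comparison in the fit, the adjusted p was 0.308 for Irf5-KO, 0.146 for Lyn-KO and 0.0957 for DKO. DKO against Irf5-KO gave -1.11 ± 0.097 (4.25e-07), and DKO against Lyn-KO gave -0.006 ± 0.097 (95% interval -0.21 to 0.20).

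With CpG-B, Irf4 was lower than WT in every mutant, at -1.31 ± 0.097 in DKO (adjusted p = 3.04e-09), -0.64 ± 0.097 in Lyn-KO (6.78e-05) and -0.41 ± 0.097 in Irf5-KO cells (0.00375), all log2 differences. DKO cells were also below Irf5-KO (-0.89 ± 0.097, 9.09e-07) and Lyn-KO cells (-0.67 ± 0.097, 2.96e-05). The difference between Irf5-KO and WT thus had opposite signs with and without CpG-B, and the test of the response gave -1.001 ± 0.14 for Irf5-KO minus WT (adjusted p = 5.73e-05, slides -1.32, -1.01 and -0.67). It gave -0.79 ± 0.14 for DKO minus WT (0.000232, slides -1.08, -0.74 and -0.54) and -0.12 ± 0.14 for Lyn-KO minus WT (0.652, 95% interval -0.41 to 0.16).

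Markers of B lineage cells moved with unstimulated Irf4. The summed level of 13 such markers (among them Ms4a1 and Pax5) was 10.6 to 16.6 in DKO, 11.6 to 12.3 in Lyn-KO, 129 to 163 in Irf5-KO and 82.3 to 126 in WT cells. Of the 13, 11 were called lower in DKO than in WT, 11 were lower in Lyn-KO, and 1 was higher in Irf5-KO. The share of all features called there was 6.78% in DKO, 4.58% in Lyn-KO and 0.737% in Irf5-KO. With CpG-B the sums were 16.6 to 18.3 in DKO, 24.6 to 26.2 in Lyn-KO, 100 to 129 in Irf5-KO and 69.8 to 92.7 in WT cells, so there the order of Irf5-KO and WT is the reverse of that of Irf4. All 13 markers were well above background on at least 13 arrays, and none was at background on all arrays. Their part in the Irf4 values was not tested.

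**Figure D3:**
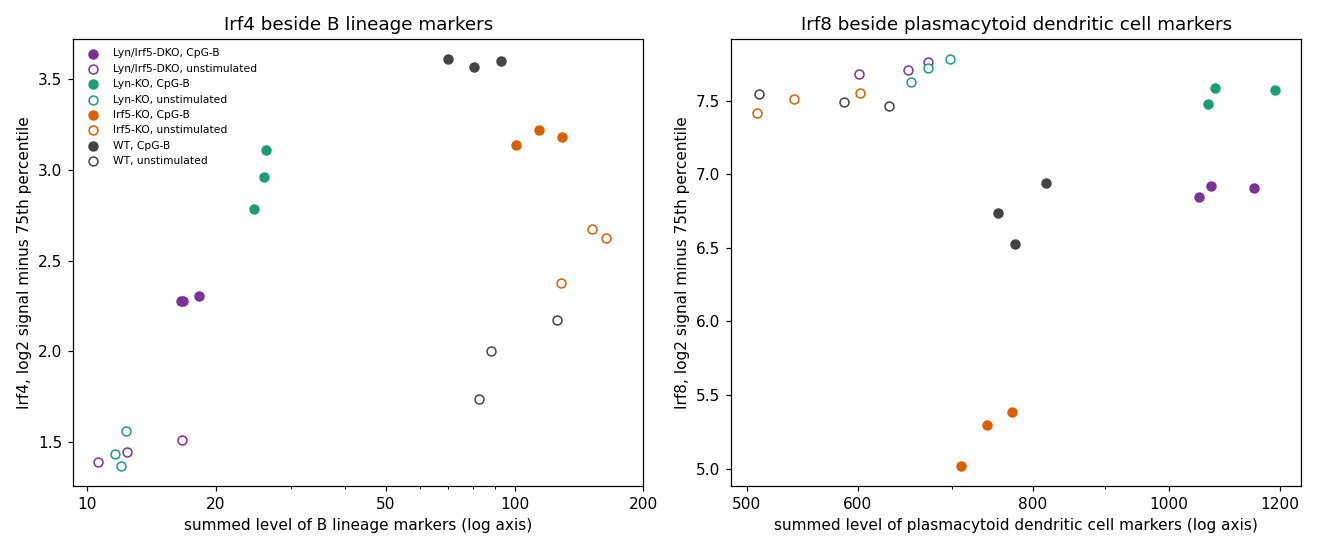
Level of Irf4 against the summed level of B lineage markers (left) and of Irf8 against that of plasmacytoid dendritic cell markers (right), with log x axes and 1 point per array (filled with CpG-B, open unstimulated). On the left, unstimulated Lyn-KO and DKO arrays sit at sums of 10.6 to 16.6 and unstimulated Irf5-KO arrays at 129 to 163. On the right, the Irf5-KO arrays with CpG-B lie lowest in Irf8 at sums of 711 to 773.

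Irf5, the TLR-activated member and the target of the Irf5-KO label, is given as the signal of its probe. With CpG-B the probe read 5.17, 5.40 and 5.17 in DKO, 4.49, 4.52 and 4.46 in Lyn-KO, 4.58, 4.75 and 5.07 in Irf5-KO and 4.23, 4.22 and 4.04 in WT cells. Unstimulated, it read 4.52, 4.55 and 4.55 in DKO, 4.84, 4.86 and 4.79 in Lyn-KO, 4.42, 4.39 and 4.49 in Irf5-KO and 4.67, 4.79 and 4.73 in WT cells. The arrays separate by the Irf5 label in both conditions, in opposite directions. With CpG-B all DKO and Irf5-KO arrays lie above all Lyn-KO and WT arrays, and unstimulated they lie below them. The change with CpG-B was 0.71 ± 0.09 in DKO (adjusted p = 8.94e-07), -0.34 ± 0.09 in Lyn-KO (0.00264), 0.37 ± 0.09 in Irf5-KO (0.00135) and -0.57 ± 0.09 in WT cells (1.52e-05). The rise in Irf5-KO cells depends on the scaling, since quantile normalisation gave 0.094 (0.35), and on replicate 3, without which it was 0.24 (0.00992). In DKO cells quantile normalisation gave 0.29 (0.00547) and in Lyn-KO cells -0.64 (2.32e-06), with the directions kept.

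The difference in response was 1.28 ± 0.13 for DKO minus WT (adjusted p = 3.73e-07, slides 1.10, 1.43 and 1.31), 0.94 ± 0.13 for Irf5-KO minus WT (4.85e-05, slides 0.61, 0.93 and 1.27) and 0.23 ± 0.13 for Lyn-KO minus WT (0.296). With CpG-B the probe was higher than WT by 1.08 ± 0.09 in DKO (1.23e-08), 0.33 ± 0.09 in Lyn-KO (0.0113) and 0.64 ± 0.09 in Irf5-KO cells (2.8e-05). The Lyn-KO call was lost without WT replicate 3 (0.27, 0.0655) and after normexp correction with quantile normalisation (0.0803). DKO exceeded Lyn-KO by 0.76 ± 0.09 (2.41e-06) and Irf5-KO by 0.45 ± 0.09 (0.000694, slides 0.59, 0.65 and 0.10), the second of these not called with only those groups in the fit (0.0639). With CpG-B the summed level of 12 monocyte and macrophage markers was 247 to 272 in DKO, 180 to 196 in Lyn-KO, 239 to 262 in Irf5-KO and 180 to 210 in WT cells, with 5 higher and 0 lower of 12 in DKO (background 44.8%) and 6 higher and 0 lower in Irf5-KO against WT (25.5%). Their part in the Irf5 values was not tested. Unstimulated, DKO and Irf5-KO arrays lay below WT without a call, at -0.19 ± 0.09 (0.249) and -0.30 ± 0.09 (0.161). Without CpG-B replicate 3 of Irf5-KO, an array outside that comparison that shares the estimate of spread, the Irf5-KO difference was called (0.045).

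**Figure D4:**
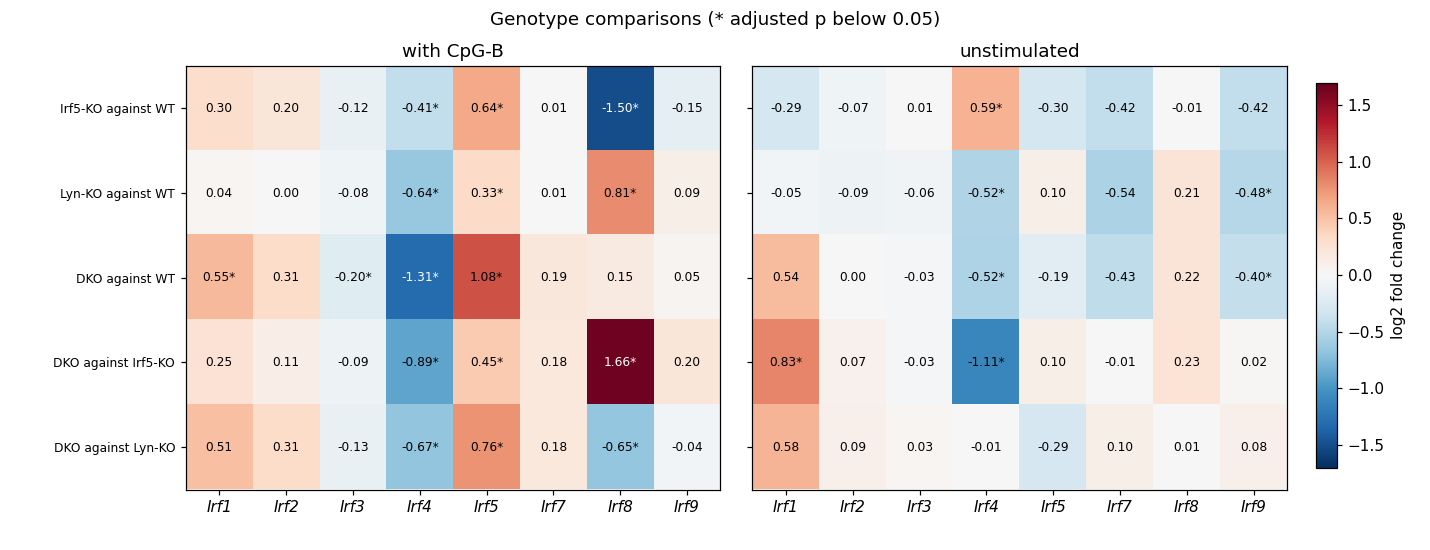
Log2 fold change between genotypes for each IRF gene (columns) in 5 comparisons (rows), with CpG-B (left) and unstimulated (right). Red is higher and blue lower in the genotype named first, and a star marks an adjusted p below 0.05. Irf4, Irf5 and Irf8 hold most of the stars with CpG-B, and Irf7 has none in either panel.

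Counted over the family, unstimulated genotypes differed in few members: 2 of 8 in DKO against WT (both lower), 2 in Lyn-KO (both lower) and 1 in Irf5-KO (higher), where the share of all features called was 6.78% in DKO, 4.58% in Lyn-KO and 0.737% in Irf5-KO. DKO against Irf5-KO called 2 members (Irf1 higher and Irf4 lower, background 5.35%). DKO against Lyn-KO called 0 of 8 by limma (background 0.163%), with 2 members at an unadjusted p below 0.05. With CpG-B, 4 members were called in DKO against WT (Irf1 and Irf5 higher, Irf3 and Irf4 lower), 3 in Lyn-KO (Irf5 and Irf8 higher, Irf4 lower) and 3 in Irf5-KO (Irf5 higher, Irf4 and Irf8 lower), beside 44.8% of all features in DKO, 25.2% in Lyn-KO and 25.5% in Irf5-KO. DKO against Irf5-KO called 3 (Irf5 and Irf8 higher, Irf4 lower, background 33.0%) and DKO against Lyn-KO called 3 (Irf5 higher, Irf4 and Irf8 lower, background 31.5%). Read against the background, these counts with CpG-B are not far from the share of all features, and Irf4, Irf5 and Irf8 recur among them. Among 54 called differences between pairs of groups, 54 had the same direction on all 3 slides. The calls were made from these same arrays and favour such agreement, so it is no separate support.

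The response to CpG-B itself differed from WT in 3 of 8 members in DKO cells (Irf4, Irf5 and Irf9, background 30.5%), 2 in Lyn-KO cells (Irf8 and Irf9, 11.1%) and 3 in Irf5-KO cells (Irf4, Irf5 and Irf8, 12.6%). For Irf9 the response exceeded WT by 0.45 ± 0.16 in DKO (adjusted p = 0.0367, slides 0.90, 0.13 and 0.33) and by 0.57 ± 0.16 in Lyn-KO cells (0.0239, slides 0.77, 0.57 and 0.38). Both Irf9 calls depend on the scaling. After normexp correction with quantile normalisation they were 0.16 in DKO (0.391) and 0.38 in Lyn-KO (0.0723), and the DKO value was 0.31 after quantile normalisation (0.164) and 0.40 after scaling each array to its median over commonly detected probes (0.0662). Without WT unstimulated replicate 1 they were 0.30 in DKO (0.106) and 0.43 in Lyn-KO (0.0568). Leaving out Lyn-KO unstimulated replicate 2 or 3 ended the Lyn-KO call (0.0527 and 0.0619), and for DKO so did leaving out any of WT CpG-B replicates 1 to 3, DKO unstimulated replicates 1 and 3 or DKO CpG-B replicates 1 and 3 (adjusted p = 0.0555 to 0.0938). Whether the effect of losing Lyn depended on Irf5 in unstimulated cells gave 0 called members by limma (background 0.0841%), with 3 at an unadjusted p below 0.05, and Irf4 was called there without unstimulated WT replicate 3 (-0.69, 0.0448).

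Genes around the IRFs were counted in lists chosen with earlier results of these data known. Their CpG-B responses stand beside a share of all features called of 70.5% in DKO, 68.9% in Lyn-KO, 66.8% in Irf5-KO and 68.5% in WT cells. Upstream of the family, in a list of TLR9 adaptors and kinases (21 genes, all measured, Lyn among them), CpG-B gave 11 higher and 5 lower in DKO, 11 higher and 5 lower in Lyn-KO, 12 higher and 3 lower in Irf5-KO and 12 higher and 9 lower in WT cells. The called share of the list was 76.2% in DKO, 76.2% in Lyn-KO, 71.4% in Irf5-KO and 100% in WT cells, near the background except in WT. The median log2 change of that list was 0.54 in DKO and 0.31 in WT cells, against 0.02 and -0.03 over all features. Ikbke, the kinase IKKε that phosphorylates IRF3 and IRF7, changed most, by 3.89 ± 0.28 in DKO and 3.29 ± 0.28 in WT cells (adjusted p = 3.29e-10 and 4.07e-09). Myd88, the adaptor of TLR9, followed at 2.24 ± 0.06 in DKO and 1.97 ± 0.06 in WT cells. With CpG-B, Syk, a kinase next to Lyn in receptor signalling, was 1.21 ± 0.07 higher in DKO, 0.34 ± 0.07 in Lyn-KO and 0.71 ± 0.07 in Irf5-KO than in WT cells (adjusted p = 5.08e-11, 0.000821 and 2.36e-07).

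Proteins that bind IRFs on DNA formed a list of 20 genes, all measured. With CpG-B, 16 higher and 3 lower were called in DKO, 14 higher and 3 lower in Lyn-KO, 14 higher and 3 lower in Irf5-KO and 12 higher and 4 lower in WT cells. The median log2 change was 0.76 in DKO and 0.52 in WT cells, beside the same medians over all features as above. Batf2 and Batf, which pair with IRF4 and IRF8, rose by 4.89 ± 0.36 and 4.36 ± 0.06 in DKO and by 5.46 ± 0.36 and 4.53 ± 0.06 in WT cells. Batf3, the partner of IRF8 in type 1 conventional dendritic cells, was lower with CpG-B in DKO (-1.96 ± 0.15, adjusted p = 3.41e-09), Lyn-KO (-0.64 ± 0.15, 0.003) and Irf5-KO (-0.86 ± 0.15, 0.000223) than in WT cells. Spib, a partner in plasmacytoid cells, was 0.71 ± 0.08 in Lyn-KO (3.05e-06) and -0.49 ± 0.08 in Irf5-KO against WT (0.000179). Unstimulated, this list had 0 higher and 0 lower in DKO, 1 higher and 1 lower in Lyn-KO and 0 higher and 0 lower in Irf5-KO against WT by limma. The share of all features called there was 6.78% in DKO, 4.58% in Lyn-KO and 0.737% in Irf5-KO.

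Regulators of IRF stability or activity (12 of 13 measured) gave 8 higher and 3 lower with CpG-B in DKO, 8 higher and 2 lower in Lyn-KO, 8 higher and 2 lower in Irf5-KO and 8 higher and 3 lower in WT cells. Trim21, a ubiquitin ligase for several IRFs, rose by 3.20 ± 0.09 in DKO and 3.02 ± 0.09 in WT cells, and Tnfaip3, a ubiquitin-editing inhibitor, by 2.70 ± 0.08 in DKO and 3.06 ± 0.08 in WT cells. The list's median was 0.34 in DKO and 0.68 in WT cells. Fbxw7, a substrate receptor of a ubiquitin ligase, was lower than WT with CpG-B in DKO (-1.01 ± 0.05), Lyn-KO (-0.65 ± 0.05) and Irf5-KO cells (-0.48 ± 0.05), with adjusted p of 3.79e-11, 6.56e-08 and 2.28e-06. In the interferon receptor pathway (12 of 12 measured), CpG-B gave 8 higher and 4 lower in DKO, 8 higher and 4 lower in Lyn-KO, 7 higher and 4 lower in Irf5-KO and 7 higher and 4 lower in WT cells. The median was 1.18 in DKO and 0.71 in WT cells. Usp18 and Socs1, feedback inhibitors of that receptor, rose by 7.60 ± 0.24 and 4.70 ± 0.22 in DKO and by 6.29 ± 0.24 and 3.94 ± 0.22 in WT cells, while Ifngr1, a chain of the interferon gamma receptor, was -3.62 ± 0.07 in DKO and -3.97 ± 0.07 in WT cells.

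Targets downstream of the family separated by list. Interferon and cytokine genes under IRF3, IRF5 and IRF7 (18 of 24 measured) rose with CpG-B in 18 cases in DKO, 18 in Lyn-KO, 17 in Irf5-KO and 18 in WT cells, with medians of 6.55 in DKO, 7.76 in Lyn-KO, 3.91 in Irf5-KO and 4.74 in WT cells. Several of these genes were not well above background unstimulated, and such genes passed the filter on dim probes only through CpG-B groups. Their rise was largely fixed by the filter, so the count of rises is no separate support. With genes not well above background on unstimulated arrays set to their bound, the medians were 6.12 in DKO, 7.37 in Lyn-KO, 3.74 in Irf5-KO and 4.67 in WT cells. With CpG-B, 12 of 18 were higher and 0 lower in DKO than in WT (median 1.49), 14 higher and 0 lower in Lyn-KO (2.77), and 0 higher and 15 lower in Irf5-KO (-0.96). DKO lay above Irf5-KO in 16 and below Lyn-KO in 14 of the 18. In those 2 comparisons 33.0% and 31.5% of all features were called. Over all features the median difference from WT with CpG-B was 0.06 in DKO, 0.05 in Lyn-KO and 0.02 in Irf5-KO. The share of all features called against WT was 44.8% in DKO, 25.2% in Lyn-KO and 25.5% in Irf5-KO. Ifnb1, interferon beta, was -2.24 ± 0.25 in Irf5-KO against WT (adjusted p = 1.92e-06) and -2.23 ± 0.25 in DKO against Lyn-KO (1.27e-06), and Ifna4 was 3.20 ± 0.36 in Lyn-KO against WT (2.67e-06). Interferon alpha genes are near-identical copies, so their probes may read each other's transcripts. Irf7 itself was not called different in any of these comparisons.

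Targets of ISGF3 (22 measured genes) rose in 22 of 22 cases with CpG-B in each genotype, with medians of 6.39 in DKO, 6.10 in Lyn-KO, 5.84 in Irf5-KO and 5.29 in WT cells. Like Irf7 and Irf9, they hardly separated the genotypes once CpG-B was given, with 2 higher and 0 lower in DKO, 1 higher and 1 lower in Lyn-KO and 1 higher and 1 lower in Irf5-KO against WT. The share of all features called there was 44.8% in DKO, 25.2% in Lyn-KO and 25.5% in Irf5-KO. Unstimulated cells differed more: 1 higher and 18 lower in DKO (median -0.82), 1 higher and 18 lower in Lyn-KO (-0.94) and 0 higher and 3 lower in Irf5-KO cells (-0.56). Over all features the medians were 0 in DKO, 0.01 in Lyn-KO and -0.02 in Irf5-KO, and the called shares were 6.78%, 4.58% and 0.737%. These comparisons share the unstimulated WT arrays, on which Irf7 read 1.16, 0.80 and 0.084 and Irf9 read 4.05, 3.72 and 3.49. Ifit3, an antiviral tetratricopeptide protein, was -2.40 ± 0.30 in DKO and -2.29 ± 0.30 in Lyn-KO against WT (adjusted p = 3.82e-05 and 6.27e-05). Targets of IRF1, IRF2 and IRF8 at MHC class I and guanylate-binding protein genes (20 of 20 measured) gave 19 higher and 1 lower with CpG-B in DKO, 18 higher and 1 lower in Lyn-KO, 18 higher and 1 lower in Irf5-KO and 18 higher and 2 lower in WT cells, and Gbp5, a guanylate-binding protein, rose by 6.49 ± 0.24 in DKO and 6.49 ± 0.24 in WT cells. The list's median response was 1.77 in DKO and 1.89 in WT cells. Against WT with CpG-B this list had 9 higher and 1 lower in DKO, 1 higher and 3 lower in Lyn-KO and 5 higher and 0 lower in Irf5-KO, which is near the share of all features called there (44.8% in DKO, 25.2% in Lyn-KO and 25.5% in Irf5-KO). Tap2, a peptide transporter subunit, was 0.71 ± 0.08 in DKO (3.75e-07), where Irf1 was 0.55.

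**Figure D5:**
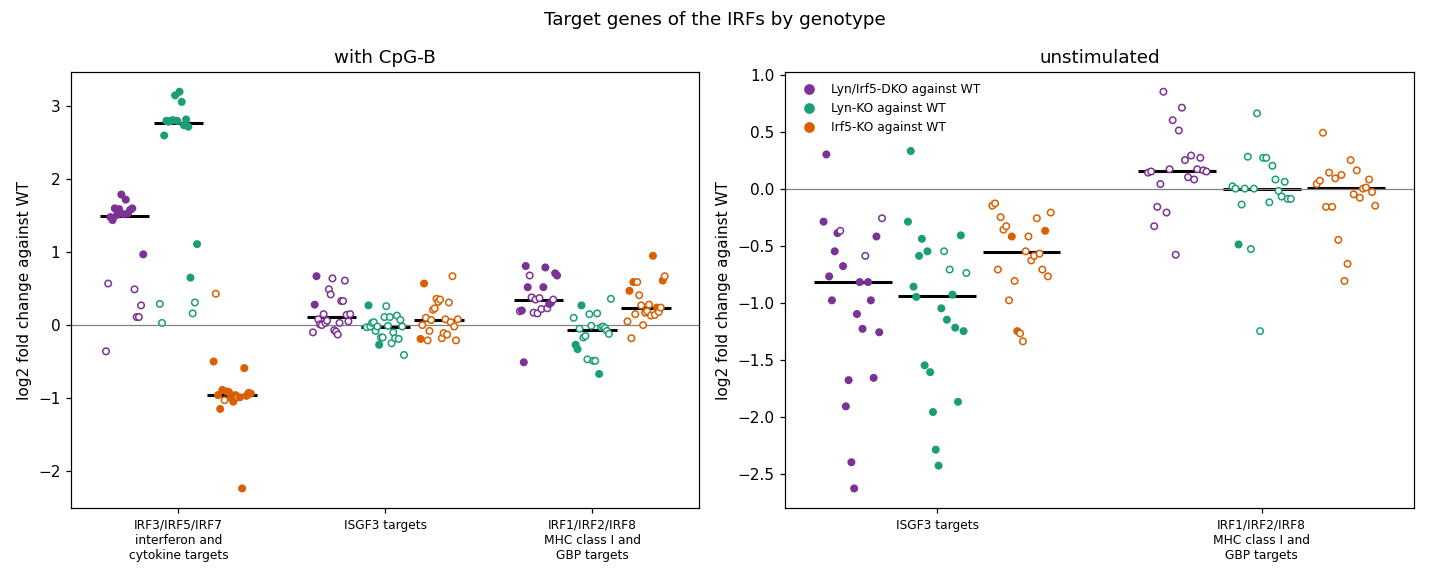
Log2 fold change against WT (y axis) of each measured target gene in DKO, Lyn-KO and Irf5-KO cells, with CpG-B (left, 3 lists) and unstimulated (right, 2 lists), where filled points are called and black lines are list medians. The interferon and cytokine list is left out on the right because several of its genes were not well above background there. With CpG-B its medians are 1.49 in DKO, 2.77 in Lyn-KO and -0.96 in Irf5-KO cells, while the ISGF3 list stays near 0.

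Across the 24 arrays, the patterns of Irf7, Irf9, Irf1 and Irf2 ran together, with Pearson r of 0.986 for Irf7 and Irf9, 0.945 for Irf1 and Irf7 and 0.917 for Irf1 and Irf2. All these arrays share the contrast between CpG-B and no stimulation, and r is given as a description. Irf7 and Irf9 had an r of 0.829 within the 12 unstimulated arrays and of 0.122 within the 12 CpG-B arrays. Within the CpG-B arrays, Irf8 and Irf9 reached 0.907, Irf1 and Irf5 reached 0.947, and Irf3 ran against Irf5 at -0.93. The named genes most like each member over 24 arrays were Oas3 and Gm5431 for Irf7 (r = 0.999 each), Irgm1 (0.995) and Trex1 (0.993) for Irf9, Cxcl9 (0.989) and Gbp2 (0.982) for Irf1, and Spop (0.985) and Septin7 (0.978) for Irf2. For Irf4 they were Zfpm1 (0.977) and Il10 (0.958), for Irf8 Cmtm7 (0.974) and Wdr81 (0.973), for Irf3 Wrap73 (0.946) and Asxl1 (0.941), and for Irf5 Dip2b (0.92) and Kcnk6 (0.918). Over the 12 CpG-B arrays alone the closest were Stx6 (0.991) and Rasip1 (0.988) for Irf8, Kif22 (0.992) and Tspan5 (0.991) for Irf4, Hmgn3 (0.985) and Il1a (0.98) for Irf5, and Pgd (0.99) and Coq10b (0.988) for Irf1.

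The second Irf1 probe, A_55_P2000067, is assigned to another RefSeq transcript of the gene and was well above background on 11 of 12 CpG-B arrays, against 0 of 12 unstimulated arrays. Counted against the lowest signal well above background, it was at least 1.94-fold higher with CpG-B in DKO, 1.81-fold in Lyn-KO, 2.34-fold in Irf5-KO and 1.55-fold in WT cells, where 2 of 3 stimulated arrays measured it. The direction is that of the main Irf1 probe in each genotype.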

How the data were processed

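RNA of 24 dendritic cell cultures was hybridised to 1-colour (Cy3) Agilent arrays. The deposited intensity values are processed signals, made with background subtraction in Agilent's software (per the file headers, Feature Extraction 10.7.3.1). From them, log2 of the signal minus the 75th percentile of the array was computed, after control spots and 4351 flagged values were left out and spots of a probe were averaged. Probes were named through their accession with the RefSeq gene table. A probe was kept where some group had all 3 of its arrays well above background (26640 probes, 20209 features after the probe with the highest mean was taken for each gene). The fit used limma 3.58.1 in R 4.3.3 with 8 group means, 19 contrasts and Benjamini-Hochberg adjustment over all features. The authors' deposited series table holds log2 values centred on the median of each row, with column medians of -0.273 to 0.375. Over 11109 features with a signal of at least 200, centred alike, 95% of its values lay within 0.0143 of those used here, which settles its scale and direction.

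Between 41% and 53.8% of spots were well above background, the 75th percentile signal was 303 to 568, and replicates correlated at 0.9909 to 0.9959. The number of arrays limits the precision. The labels call the replicates biological without saying what separates them, and p-values measure the spread between these arrays. The 8 members and all lists were chosen with earlier results of these data known. Named are the 8 members, Lyn, at most 4 called list genes with the largest change per list and contrast, and the 2 genes most correlated with each member. Marker sums add linear levels over the probes of a list. Replicate numbers equal array slides on 24 of 24 arrays. Same-numbered arrays deviated together (r over 0.1) in 25 of 84 pairs, from -0.0843 to 0.293, and in 3 of 28 comparisons of groups every pair did: CpG-B against unstimulated cells of Lyn-KO (0.139 to 0.281), Irf5-KO (0.132 to 0.192) and WT (0.142 to 0.214). The numbers were taken to pair the samples there and not elsewhere. The reported fit nevertheless used no pairing, so its errors, intervals and p-values are unpaired in all comparisons. The alternatives tried were other scalings, filters, probe rules, fits, the slide block and leaving out each array. The procedure was tested on simulated data. Some items covered by the naming rule are not reported here. Tools also used were pandas 2.3.3 and matplotlib 3.10.9.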

Additional observations from a re-analysis of the deposited data

Results flagged for a closer look

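The response to CpG-B differed between genotypes in a test of the difference itself (limma, adjusted over all features) in 9 cases, given here as log2 differences. In Irf5-KO minus WT, Irf8 was -1.496, Irf4 was -1.001 and Irf5 was 0.936. In Lyn-KO minus WT, Irf8 was 0.594 and Irf9 was 0.574. In DKO minus WT, Irf5 was 1.278, Irf4 was -0.785 and Irf9 was 0.452. The effect of losing Lyn on Irf8 with CpG-B was larger without Irf5 than with it by 0.851. The second Irf1 probe, for which only bounds are given above, was well above background on 11 of 12 CpG-B arrays, against 0 of 12 unstimulated arrays.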

How the results depend on the processing

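Of 63 called member results among 152, 46 kept call and direction under all 10 other settings and on leaving out each of 24 arrays, while 17 lost the call under at least 1 of these. The CpG-B change of Irf3 turned its sign in Irf5-KO cells to -0.053 under quantile normalisation and -0.015 under normexp with quantile normalisation, and in DKO cells to -0.189 and -0.158, and the cause was not tested. Over the contrasts, the median of all features lay between -0.094 and 0.021 under quantile normalisation and between -0.071 and 0.017 under normexp, against -0.032 to 0.058 in the reported fit.

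Counts of called members moved in unstimulated cells. With only the groups of a comparison in the fit, which leaves fewer samples for the spread, 0 members were called in DKO, Lyn-KO and Irf5-KO against WT and 1 in DKO against Irf5-KO. DKO against WT gave 1 with normexp and 1 without the filter on dim probes. The response in Lyn-KO minus WT gave 0 with normexp, 1 without the filter and 1 with only its groups. On leaving out 1 array, unstimulated counts ranged from 1 to 3 in DKO, Lyn-KO and Irf5-KO against WT, from 1 to 2 in DKO against Irf5-KO and from 0 to 1 in DKO against Lyn-KO. The response in Lyn-KO minus WT ranged from 1 to 3, and the unstimulated effect of losing Lyn without minus with Irf5 from 0 to 1.

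With the replicate number as a block, the response in DKO minus WT had 5 called members in place of 3, with Irf2 and Irf7 added, and 5 member results in all became called while 0 lost the call. Among the CpG-B responses of Lyn-KO, Irf5-KO and WT cells, where the numbers pair the samples, it changed no call. Dim probes, such as the second Irf1 probe, allow only bounds.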
